A study of Mus musculus with 8 samples.

Results

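Chrna9 encodes the nicotinic acetylcholine receptor α9 subunit, and its mRNA was followed here through the muscle of the embryonic mouse diaphragm. The gene was chosen by its symbol, 1 of the 19465 genes in the files, and it was selected on these same data because its counts were far higher in late fetal than in early fetal muscle and higher in fast than in slow muscle. Both of those patterns are therefore given as descriptions without a test. Myh4, the gene of the fast myosin heavy chain IIb, was read beside it as a reference for fast muscle.

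The data were 8 spatial transcriptomics sections (10x Visium, probes hybridized to formalin-fixed, paraffin-embedded tissue), each a 5 µm section on an array of 55 µm spots at a spacing of 100 µm, so that a spot can hold several fibers and other cells. Diaphragms of control embryos were sectioned at E14.5 (3 sections) and E18.5 (2 sections). CaV1.1 KO embryos (genotype CaV1.1 -/-, the dysgenic line), which lack CaV1.1, the voltage sensor of excitation-contraction coupling, gave 1 section at each stage, and bCat cKO embryos gave 1 section at E18.5. In the latter (β-cat cKO below), β-catenin is floxed and removed by Cre under the human skeletal actin promoter, so that the deletion is aimed at skeletal muscle. Per the study's methods, controls carried at least one functional allele of each gene, so that some may have been heterozygous or carried floxed alleles. By the crosses given there, CaV1.1 KO embryos may have carried floxed β-catenin alleles or Cre, and the β-cat cKO embryo may have been heterozygous for CaV1.1. Nothing in the labels says whether sections of a group came from separate litters, and sex is not given. P-values between groups therefore measure the spread between these sections. Those between parts of a section, with the section as a block, measure how much the difference within a section varied among the sections entered. Each mutant group is 1 section without replicates.

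Nicotinic acetylcholine receptors are ligand-gated ion channels built from several subunits. Fetal muscle builds them from the α1, β1, δ and γ subunits, and the γ subunit is exchanged for ε as the neuromuscular junction (NMJ) matures. The α9 subunit is best known from cochlear hair cells, where it assembles with α10 into the receptor that answers efferent fibers, and where the calcium that enters opens the potassium channel encoded by Kcnn2. Fast fibers use the myosins of Myh4, Myh1 and Myh2, slow fibers that of Myh7, and newly formed fibers the embryonic myosin of Myh3 before the neonatal myosin of Myh8.

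Chrna9 (ENSMUSG00000029205) lies on the plus strand of chromosome 5 at chr5:65934921-65977326 (GRCm38, GENCODE vM21). The transcript used here has 5 exons, and its RefSeq start lies inside this span. The annotated genes 4930480C01Rik and Gm43771 lie within the span on the same strand. As in other α subunits, a pair of neighboring cysteine codons marks the acetylcholine-binding loop, and the stretches around this pair are shown because they carry what makes the product an α subunit and how near α9 and α10 are there (GENCODE vM21 transcripts, coding strand, 5′ to 3′, the cysteine pair in capitals):
Chrna9, codons 219 and 220, exon 4, chr5:65971078-65971137, plus strand: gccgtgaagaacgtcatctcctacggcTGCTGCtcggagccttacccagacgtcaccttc
Chrna10, codons 218 and 219, exon 4, chr7:102113298-102113357, minus strand: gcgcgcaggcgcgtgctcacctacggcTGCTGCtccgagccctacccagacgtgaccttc
Chrna1, codons 212 and 213, exon 6, chr2:73570519-73570578, minus strand: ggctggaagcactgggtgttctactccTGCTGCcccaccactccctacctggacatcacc
The 3 stretches share the pair, which was written with the same codons in each. The positions of the assay's probes on these genes are not given in the sources used here.

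The 250 bases before the transcription start are shown because Chrna9 and Myh4 rose together with stage (RefSeq promoter table, GRCm38.p6, 5′ to 3′ on the gene's strand). Capitals mark matches to CANNTG, the E-box that myogenic factors such as MyoD and myogenin bind, which reads the same on both strands:
Chrna9, chr5:65966874-65967123, plus strand: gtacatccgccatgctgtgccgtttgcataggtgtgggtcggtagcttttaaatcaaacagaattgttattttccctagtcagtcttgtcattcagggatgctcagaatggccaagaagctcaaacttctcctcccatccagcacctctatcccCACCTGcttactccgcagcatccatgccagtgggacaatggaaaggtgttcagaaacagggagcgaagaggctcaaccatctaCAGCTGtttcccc
Myh4, chr11:67237562-67237811, plus strand: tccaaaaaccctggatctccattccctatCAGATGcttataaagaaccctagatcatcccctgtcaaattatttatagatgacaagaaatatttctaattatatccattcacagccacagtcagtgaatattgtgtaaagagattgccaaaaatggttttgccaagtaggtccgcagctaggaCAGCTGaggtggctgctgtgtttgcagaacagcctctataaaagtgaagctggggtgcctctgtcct
Chrna9 and Myh4 each held 2 matches in this window. Of 32851 promoter windows of the same length in the table, 66.2% held at least 1 match and 31.8% held 2 or more, so that the matches are a description of these letters and not a mark of the pair.

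Between 491 and 3092 spots per section were muscle (spots with at least 1000 UMIs, the unique molecular identifiers that count molecules, in which the mean of 9 muscle genes lay above a threshold set within the section), with 12835167 to 75800909 UMIs in them. The 9 muscle genes made up 1.62% to 2.74% of these UMIs at E14.5, 12.8% and 13.2% in the E18.5 controls, 7.14% in CaV1.1 KO and 10.5% in β-cat cKO at E18.5. In spots of this width, less muscle in a spot and less RNA per fiber cannot be told apart. The CaV1.1 gene Cacna1s was at 61.2 and 63.9 CPM (UMIs of the gene per 1000000 UMIs in the same spots) in the E18.5 controls and 31.4 in CaV1.1 KO, and the β-catenin gene Ctnnb1 at 75.9 and 71.2 in the controls and 81.5 in β-cat cKO. Since it is not known whether the probes lie in the deleted parts, these values check neither genotype.

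Chrna9 mRNA was scarce in E14.5 muscle and abundant at E18.5. The 3 E14.5 controls held 45, 50 and 20 Chrna9 UMIs in their muscle spots, equal to 2.18, 1.70 and 1.56 CPM. The 2 E18.5 controls held 3781 and 3368, equal to 49.9 and 53.5 CPM. The ratio of the group means (1.81 ± 0.325 SD, n = 3, and 51.7 ± 2.57 SD, n = 2) was 28.5. In the fit across all genes with edgeR, whose TMM factors correct for the composition of the libraries, the log2 difference was 5.54 ± 0.14 (SE). In this comparison 33.2% of genes were higher and 32.3% lower. The share of the 9 muscle genes in the RNA rose as well over this time, and relative to their UMIs the ratio was 5.27. Genes among these 9 rose with stage themselves, Tnnt3 by 3.79 and Acta1 by 3.96 on the log2 scale. The ratio is therefore not a level per amount of muscle.

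**Figure D1:**
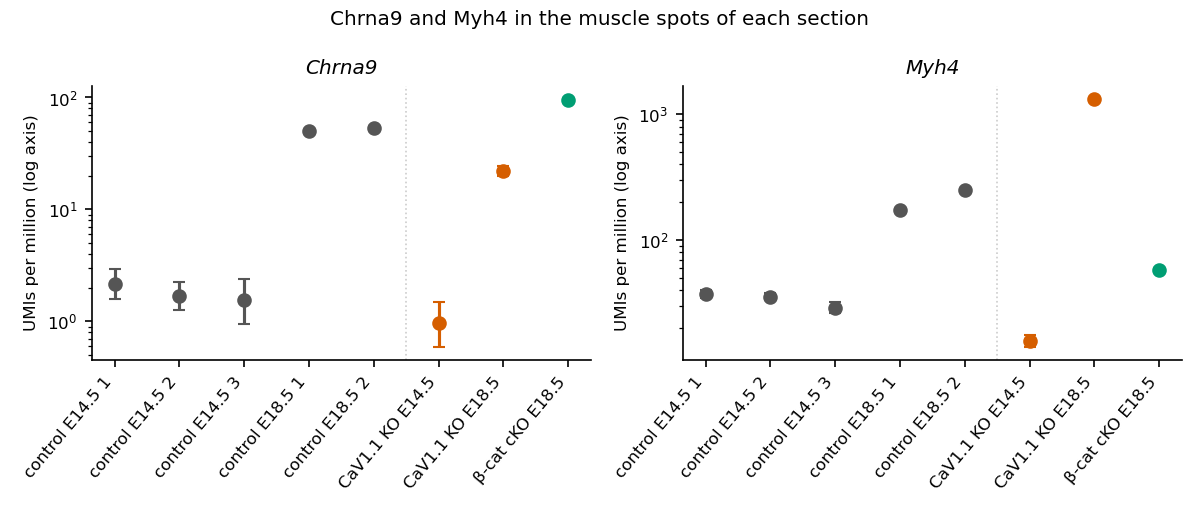
Chrna9 (left) and Myh4 (right) CPM of the muscle spots, on log axes, for each of the 8 sections; bars are exact 95% Poisson intervals of the count. Chrna9 was between 1.56 and 2.18 in the E14.5 controls and at 49.9 and 53.5 in the E18.5 controls, and at E18.5 the 2 mutants left the controls in opposite directions for both genes, Chrna9 at 22.2 in CaV1.1 KO and 95.2 in β-cat cKO.

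At E18.5 the mutants stood on either side of the controls. CaV1.1 KO muscle held 362 Chrna9 UMIs, or 22.2 CPM (95% Poisson interval 20.0 to 24.6, counting error only), against 49.9 and 53.5 in the controls. β-cat cKO muscle held 4596, or 95.2 CPM (92.5 to 98.0). CaV1.1 KO was thus below both controls and β-cat cKO above both. In the edgeR quasi-likelihood fit Chrna9 was lower in CaV1.1 KO by a log2 difference of -1.76 ± 0.17 (SE, adjusted p = 0.00135), among 14832 genes of which 10.6% were higher and 15.2% lower in this comparison. It was higher in β-cat cKO by 0.66 ± 0.15 (edgeR adjusted p = 0.0348), where 3.18% of the genes were higher and 5.62% lower. The SE of both rests on the spread among the control sections. Since Chrna9 was chosen for its high counts at E18.5 in these same sections, the p-values of both are not independent of that choice. Scaled to the 9 muscle genes, a scaling that moved the median of all genes by 1.40 in the first comparison and by 0.52 in the second, the difference in CaV1.1 KO was -0.35 (edgeR adjusted p = 0.339) and no longer called, while that in β-cat cKO was 1.19 (edgeR adjusted p = 0.0042). The call in β-cat cKO was lost without E14.5 control 2 or 3 or without either E18.5 control (edgeR adjusted p from 0.0545 to 0.0701) and with all spots under tissue entered (edgeR adjusted p = 0.0995). The summed level of 3 immune markers (Ptprc, Cd68 and C1qa) in muscle spots was 67.1 and 90.2 CPM in the E18.5 controls, 270 in CaV1.1 KO and 157 in β-cat cKO, that of 4 Schwann cell markers 47.1 and 51.4, 144 and 64.4, and that of 4 cartilage markers 960 and 62.3, 22.9 and 35.8; none of these markers was at 0 in all sections, and their part in the Chrna9 differences was not tested.

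At E14.5 CaV1.1 KO muscle held 20 Chrna9 UMIs, or 0.963 CPM (0.588 to 1.49), the lowest value of the 8 sections. The log2 difference from the controls was -0.93 ± 0.29 and did not pass (edgeR adjusted p = 0.167, with 0.533% of genes higher and 1.54% lower). Between E14.5 and E18.5 Chrna9 also rose in CaV1.1 KO, by a log2 difference of 4.71 ± 0.26, given without a p since the gene was selected for its stage pattern over all sections (22.9% of genes were higher and 23% lower in this comparison). This rise and that of the controls differed by -0.82 ± 0.35, which did not pass (edgeR adjusted p = 0.187, with 2.22% of genes higher and 4.18% lower); it shares the sections of the comparisons above. In rising order of level the groups ran CaV1.1 KO at E14.5, controls at E14.5, CaV1.1 KO at E18.5, controls at E18.5 and β-cat cKO, and the lowest 2 of these groups did not differ past the test.

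Myh4 and Chrna9 departed from the controls in opposite directions in both E18.5 mutants, and at E14.5 both were at lower values in CaV1.1 KO. Myh4 was at 37.5, 35.5 and 29.1 CPM in the E14.5 controls and at 173 and 251 in the E18.5 controls. Scaled to the 9 muscle genes this rise was 0.18 on the log2 scale and not called (edgeR adjusted p = 0.328). At E18.5 Myh4 reached 1322 CPM in CaV1.1 KO and fell to 57.9 in β-cat cKO. Myh4 was thus above both controls where Chrna9 was below them, and below both where Chrna9 was above. Scaled to the 9 muscle genes, the Chrna9 difference in CaV1.1 KO was only -0.35. The log2 differences of Myh4 were 2.1 ± 0.24 (edgeR adjusted p = 0.0019) in CaV1.1 KO and -2.09 ± 0.27 (edgeR adjusted p = 0.00677) in β-cat cKO. Scaled to the 9 muscle genes they kept their directions, at 3.51 and -1.56. This scaling raised the median of all genes in both, so that the value in CaV1.1 KO could hardly have turned. At E14.5 Myh4 was at 15.8 CPM in CaV1.1 KO, a difference of -1.13 ± 0.27 that did not pass (edgeR adjusted p = 0.0876). Per 1000 Myh4 UMIs there were 288 and 213 Chrna9 UMIs in the E18.5 controls, 16.8 in CaV1.1 KO and 1643 in β-cat cKO.

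Myh4 was not typical of the fast genes in CaV1.1 KO. Of 12 fast genes, 8 were lower there at E18.5, as Chrna9 was, and Myh4 was the 1 that was higher (15.2% and 10.6% of all genes), with a median of -1.02. Scaled to the 9 muscle genes, 6 of these 8 turned positive, under a scaling that raised the median of all genes as well. The fast myosins Myh1 and Myh2 were at -0.05 and -0.13 and not called (edgeR adjusted p = 0.899 and 0.749). The study, which compared spots under another normalization, describes all of Myh4, Myh1 and Myh2 as strongly increased in this mutant at E18.5. In β-cat cKO 3 of the 12 were lower (Myh4, Myh2 and Tnni2) where 5.62% of all genes were.

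Chrna9 UMIs were spread over many muscle spots rather than held by a few. At E18.5, 64.0% (95% exact binomial interval 62.3% to 65.7%) and 71.6% (69.6% to 73.5%) of the control muscle spots had at least 1 Chrna9 UMI, with 31.6% (28.4% to 34.9%) in CaV1.1 KO and 75.8% (73.6% to 77.9%) in β-cat cKO. At E14.5 the shares were 7.10%, 8.41% and 3.27% in the controls and 3.87% in CaV1.1 KO. Thinned to 5000 UMIs per spot, which left out between 4 and 138 muscle spots of a section with fewer, the shares at E18.5 were 22.2% and 23.3% in the controls, 10.8% in CaV1.1 KO and 32.5% in β-cat cKO, and at E14.5 at most 1.06%. The most Chrna9 UMIs in 1 spot were 7 and 9 in the E18.5 controls, 4 in CaV1.1 KO and 19 in β-cat cKO, where 24.2% of the muscle spots held 5 or more, against 1.97% and 4.18% in the controls.

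Outside muscle Chrna9 was lower. In the spots not called muscle it was at 15.5 and 8.69 CPM in the E18.5 controls, 5.75 in CaV1.1 KO and 11.7 in β-cat cKO, and in all 8 sections at least 87.0% of its UMIs lay in muscle spots. Muscle spots held most UMIs of all genes too, such as 75800909 of 82859104 in E18.5 control 1 and 20762765 of 35139640 in CaV1.1 KO at E14.5. In non-muscle spots more than 250 µm from any muscle spot, 20.5% and 3.75% of the 73 and 80 spots in the E18.5 controls had a Chrna9 UMI, at median depths of 16059 and 19047 UMIs against 23525 and 27917 in muscle spots. In the mutants at E18.5 3.88% of 129 such spots in CaV1.1 KO and 18.2% of 170 in β-cat cKO had one, at median depths of 8818 and 25094 UMIs. These distant spots were not free of muscle mRNA, since the 9 muscle genes made up 4.55% and 1.97% of their UMIs in the controls, 1.26% in CaV1.1 KO and 0.929% in β-cat cKO. After thinning these shares were 4.17% and 1.25% in the controls, 2.08% in CaV1.1 KO and 4.88% in β-cat cKO. Relative to the UMIs of the 9 muscle genes, the Chrna9 level in the non-muscle spots was 0.832 and 0.672 times that of muscle spots in the E18.5 controls, 0.919 times in CaV1.1 KO and 0.815 times in β-cat cKO, so that most of the gap between muscle and other spots was shared with the muscle genes. At E14.5, 1, 2 and 0 Chrna9 UMIs lay in such distant spots of the controls.

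**Figure D2:**
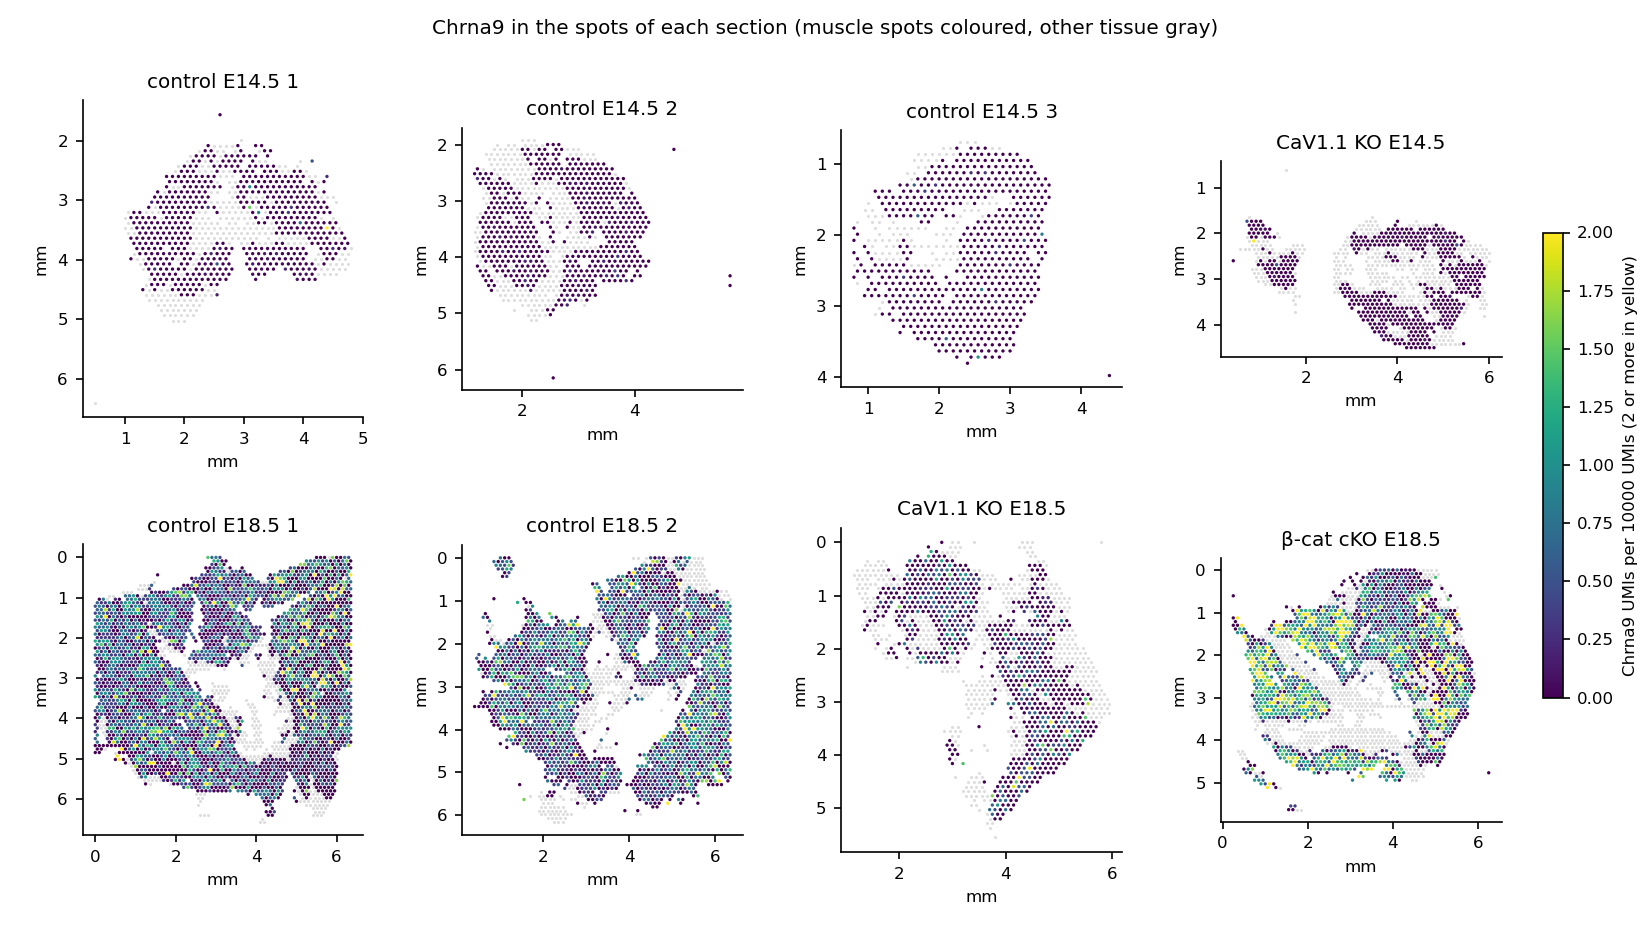
Position of every spot in the 8 sections in mm, with muscle spots colored by Chrna9 UMIs per 10000 UMIs of the spot (2 or more in yellow) and other tissue in gray. At E14.5 nearly all muscle spots held no Chrna9 UMI, and at E18.5 signal was scattered through the muscle of both controls, sparse in CaV1.1 KO and gathered in patches in β-cat cKO.

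In β-cat cKO Chrna9 was the most uneven, by measures that also depend on the count per spot. The index of dispersion over muscle spots, the variance relative to that of random counting at equal rates, which also grows with the mean count where rates differ, was 1.22 and 1.26 in the E18.5 controls, 1.23 in CaV1.1 KO and 1.64 in β-cat cKO. The correlation of a spot's deviation with that of its neighbors was 0.23 and 0.20 in the controls, 0.15 in CaV1.1 KO and 0.45 in β-cat cKO (Pearson's r over 3085, 2178, 794 and 1563 spots that share a library, given as a description). At E14.5 it lay between -0.05 and 0.07. Few counts per spot weaken this correlation, and Chrna9 counts per muscle spot were highest in β-cat cKO and lowest at E14.5.

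In control muscle Chrna9 changed sides with stage relative to the band of motor endplates. The muscle center was taken as those 15% of a section's muscle spots in which 8 endplate genes scored highest, the periphery as those 15% in which 4 genes of the myotendinous junction (MTJ) did, and the rest as intermediate muscle. In the E14.5 controls Chrna9 was at 3.04, 3.87 and 2.94 CPM in the center (12, 19 and 6 UMIs) and at 1.97, 1.32 and 1.46 in intermediate muscle (28, 27 and 13 UMIs). The center was higher in 3 of 3 sections, with a log2 difference of 1.14 ± 0.33 (edgeR with the section as a block, adjusted p = 0.0153), where 9.17% of 12287 genes were higher and 7.48% lower. This call rested on 37 UMIs in the center, counted over the 3 sections, and was lost with DESeq2 (adjusted p = 0.259), with regions of 25% (edgeR adjusted p = 0.0612) and with no block for the section (edgeR adjusted p = 0.127). The center of the 1 E14.5 section of CaV1.1 KO went the other way. It held 1 Chrna9 UMI (0.222 CPM), 0.191 times the CPM of intermediate muscle.

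At E18.5 the order seen in the controls was turned. Chrna9 was at 34.3 and 42.8 CPM in the center of the 2 controls and at 57.2 and 59.9 in intermediate muscle. The center was lower in 2 of 2 sections, with a log2 difference of -0.71 ± 0.07 (edgeR adjusted p = 1.31e-05), in a comparison with 5.43% of 12888 genes higher and 5.97% lower; with no block for the section the call was lost (edgeR adjusted p = 0.113). The periphery was also lower, at 32.5 and 34.1 CPM, by -0.96 ± 0.07 (edgeR adjusted p = 4.76e-07, with 17.1% of genes higher and 16.9% lower). Both differences kept their direction and call when scaled to the 9 muscle genes, at -0.46 and -0.58. Of 12 fast genes 10 were lower in the center and 0 higher, and 10 were lower in the periphery and 2 higher. Since Chrna9 was chosen for being higher in fast muscle of these data, the p-values of both regions are not independent of that choice. At E14.5 the periphery was at 2.02, 0.97 and 0.52 CPM, a difference of -0.38 ± 0.48 that did not pass (edgeR adjusted p = 0.758, with 4.74% of genes higher and 2.89% lower).

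The center of the E18.5 mutants was described without a test, since each is 1 section. In β-cat cKO Chrna9 ran as in the controls, at 66.1, 109 and 56.7 CPM in center, intermediate and periphery. In CaV1.1 KO the center (23.2 CPM, 57 UMIs) was level with intermediate muscle (23.7, 281 UMIs), and the periphery was at 12.1 (24 UMIs). Muscle spots that bordered other tissue within 150 µm held 30.5 and 29.9 CPM in the controls, 11.9 in CaV1.1 KO and 52.2 in β-cat cKO, and those at 250 to 350 µm held 54.7 and 57.8, 34.2 and 116. The low rim was not particular to Chrna9. Myh4 was at 85.6 and 111, 870 and 33.7 within 150 µm and at 162 and 203, 1540 and 57.7 at 250 to 350 µm. Chrna1 was also lower at the rim in each section. These values were not scaled to the muscle genes, and the part of muscle content in them was not tested.

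**Figure D3:**
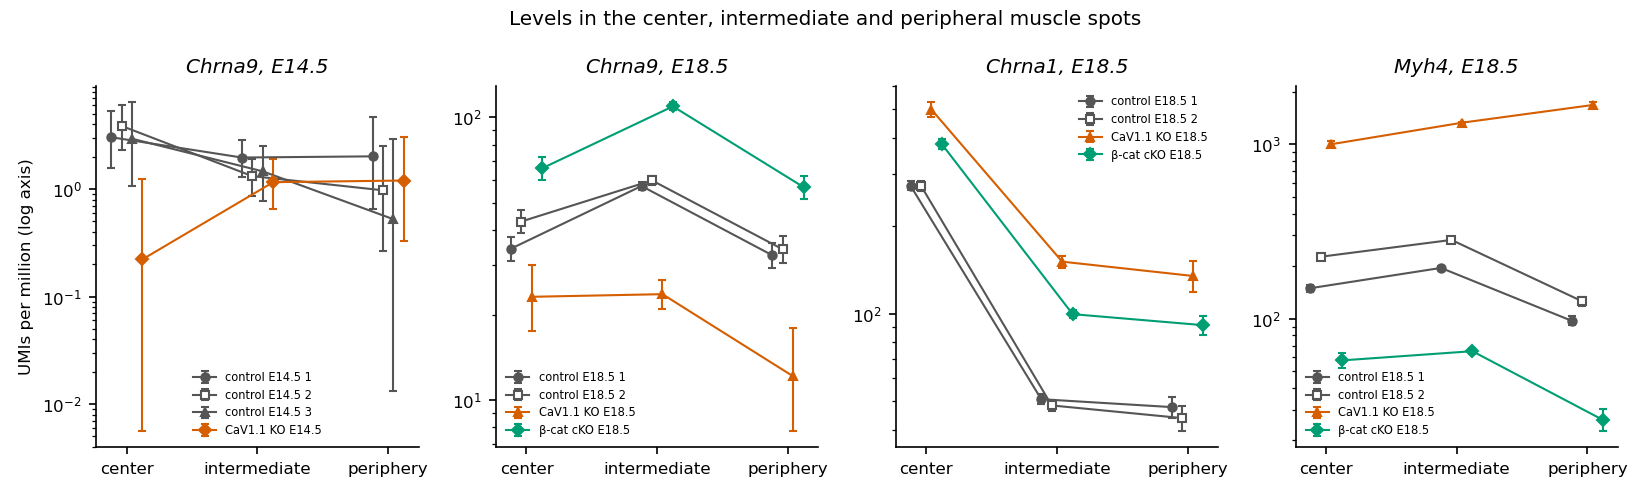
CPM (log axes, exact 95% Poisson intervals) in center, intermediate and peripheral muscle spots: Chrna9 in the 4 E14.5 sections, then Chrna9, Chrna1 and Myh4 in the 4 E18.5 sections. At E18.5 Chrna9 was lower in the center than in intermediate muscle in both controls (34.3 and 42.8 against 57.2 and 59.9), whereas Chrna1, one of the genes that define the center, was highest there.

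Genes of other receptor subunits were higher in the E18.5 center, where Chrna9 was lower. Chrne, the ε subunit of the mature receptor and no part of the endplate score, was higher in the center of the E18.5 controls by 3.66 ± 0.14 (edgeR adjusted p = 1.2e-09). Chrnb1, the β1 subunit and likewise outside the score, was higher there by 0.18 ± 0.04 (edgeR adjusted p = 0.0089), a call that DESeq2 did not make (adjusted p = 0.292). Chrna1, Chrnd and Chrng were used to define the center and are not read here. Of the 5 other subunit genes tested that did not define it, these 2 were higher and none was lower by edgeR (1 was lower at an unadjusted p under 0.05, and none by DESeq2), where 5.43% of all genes were higher and 5.97% lower. Of the 12 fast genes 10 were lower in the center, Myh4 among them (-0.45 ± 0.05, edgeR adjusted p = 5.98e-05). Myh3, the embryonic myosin, was higher in the center by 0.66 ± 0.05 (edgeR adjusted p = 9.26e-07). In the E14.5 controls 8 of the 11 fast genes tested were higher in the center and 0 lower, where 9.17% of all genes were higher and 7.48% lower. Of 9 slow genes 6 were higher there and 1 lower.

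With stage, the other subunits went several ways. Of the 16 nicotinic subunit genes, 12 passed the filter on low counts. Besides Chrna9, 3 of the 11 others rose in the controls and 6 fell, with 33.2% of all genes higher and 32.3% lower in this comparison and a median of -0.79 against -0.01 over all genes. The 3 that rose were Chrne (2.84 ± 0.19, edgeR adjusted p = 1.1e-05), Chrnb2 and Chrnb1, and scaled to the 9 muscle genes none of these was still higher. Chrng, the fetal γ subunit, fell by 1.69 (edgeR adjusted p = 5e-05), and Chrna4, a subunit best known from neurons, by 1.83 (edgeR adjusted p = 2.75e-05). Chrna9 kept its direction under this scaling, at 2.39.

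Chrna10, the partner of Chrna9 in hair cells, was all but absent. Its UMIs in muscle numbered 1, 0 and 2 in the E14.5 controls, 1 and 3 in the E18.5 controls and 0 in each mutant section, which in β-cat cKO allows up to 0.0622 CPM (3 counts, counting error only) where Chrna9 was at 95.2. Chrna2, Chrna6 and Chrnb3 had at most 3 UMIs in any section. Whether the Chrna10 probes work in this tissue was not tested. The 3 hair cell markers Myo7a, Pou4f3 and Otof together were at 4.79 and 5.02 CPM in the muscle of the E18.5 controls, 7.31 in CaV1.1 KO and 8.43 in β-cat cKO at E18.5, and at 9.41 to 11 at E14.5.

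In CaV1.1 KO at E18.5 Chrna9 was lower while several other subunits were higher, and in β-cat cKO it went with Chrng and opposite to Chrne. In CaV1.1 KO 5 of the 11 other subunit genes tested were higher and none was lower by edgeR, where 10.6% of all genes were higher and 15.2% lower, with a median of 0.72 against 0.00 over all genes. Chrnb1 was at -0.48, lower at an unadjusted p under 0.05 (edgeR adjusted p = 0.0557) and called by DESeq2 (adjusted p = 0.0192), but at 0.92 when scaled to the 9 muscle genes. The 5 higher ones were Chrna1 (0.72 ± 0.17, edgeR adjusted p = 0.0195), Chrnd (1.06 ± 0.17), Chrng (0.96 ± 0.19), Chrne (1.35 ± 0.22) and Chrna4 (0.92 ± 0.20). All 5 kept direction and call when scaled to the 9 muscle genes. This is no support for them, since that scaling raised the median of all genes in this comparison and so favored higher values. In β-cat cKO Chrng was higher by 1.08 ± 0.19 (edgeR adjusted p = 0.0184) and Chrne lower by -1.85 ± 0.26 (edgeR adjusted p = 0.00866), and no other subunit of the 11 was called, where 3.18% of all genes were higher and 5.62% lower. Chrne and Chrna9 thus moved in opposite directions in both mutants: Chrne was at 5.34 and 5.65 TMM-scaled CPM in the E18.5 controls, 14.03 in CaV1.1 KO and 1.52 in β-cat cKO. For Chrna9 the limits given above hold here too: scaled to the 9 muscle genes it was only at -0.35 in CaV1.1 KO, and its call in β-cat cKO depended on the control sections entered.

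**Figure D4:**
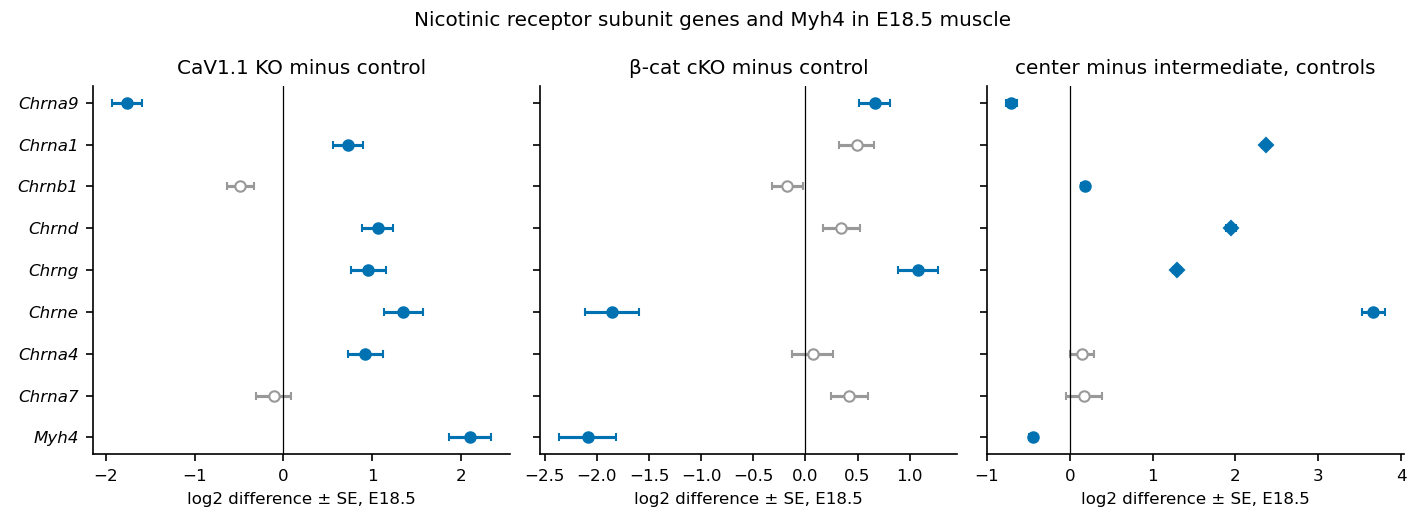
Log2 differences ± SE from edgeR for Chrna9, 7 other nicotinic subunit genes and Myh4 in E18.5 muscle: CaV1.1 KO minus control, β-cat cKO minus control, and center minus intermediate muscle in controls. Filled blue symbols passed an adjusted p of 0.05, open gray symbols did not, and diamonds mark genes that define the center; Chrna9 (-1.76 and 0.66) and Chrne (1.35 and -1.85) lay on opposite sides of 0 in both mutants.

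Of 8 genes fixed as partners of α9 receptors or of receptor assembly, 7 were tested, and in CaV1.1 KO at E18.5 3 were higher and 1 lower, where 10.6% and 15.2% of all genes were. Kcnn2, the potassium channel paired with α9 receptors in hair cells, was at 21.5 and 25.1 TMM-scaled CPM in the E18.5 controls and 38.0 in CaV1.1 KO, a difference of 0.71 ± 0.19 (edgeR adjusted p = 0.0327), opposite to Chrna9. Lynx1, which encodes a toxin-like protein that binds nicotinic receptors, fell in both mutants, by 1.49 in CaV1.1 KO (edgeR adjusted p = 0.00491) and by 1.60 in β-cat cKO (edgeR adjusted p = 0.00908); scaled to the 9 muscle genes the first was -0.08 and not called. In β-cat cKO it was the only 1 of the 7 called, where 5.62% of all genes were lower.

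Within each E18.5 section Chrna9 was higher where a set of 5 fast genes was high relative to slow genes. Fast-rich and slow-rich spots were the top and bottom tertile of muscle spots by the difference between a score of 5 fast genes and a score of 6 slow genes. In the controls Chrna9 was at 63.4 and 66.5 CPM in fast-rich spots and at 35.8 and 38.2 in slow-rich spots. In CaV1.1 KO it was at 36.0 and 9.60, and in β-cat cKO at 127 and 53.3. The log2 difference over the 4 sections was 1.28 ± 0.17, given without a p because the gene was chosen for it. With Myh4 left out of the score it was 1.34 ± 0.17. Fast-rich spots also held more muscle RNA (13.8% against 12.1% of UMIs from the 9 muscle genes in control 1, and 9.10% against 5.29% in CaV1.1 KO), and scaled to these genes the difference was 0.73. Tnnt3, a fast gene among these 9, was itself at 0.79 in this comparison, so that the scaling can also take out part of a fast difference. Within tertiles of muscle RNA, fast-rich spots were higher in 12 of 12 combinations of section and tertile, by 1.2 to 3.8 times. This count is a description as well, since the gene was chosen for this pattern and tertiles of 1 section are not independent. At E14.5, with 5 to 19 UMIs per class, fast-rich spots were higher in 1 of 3 controls.

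Of the other subunit genes, 8 were tested between fast-rich and slow-rich spots and none was called by edgeR (1 higher and 1 lower at an unadjusted p under 0.05, and 1 higher by DESeq2), with 6.45% of 13870 genes higher and 4.61% lower. Of the 7 fast genes outside the score that were tested, 4 were higher in fast-rich spots. The fast myosins among these 7 were not called, Myh1 at 0.59 and Myh2 at -0.53 (edgeR adjusted p = 0.11 and 0.086).

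The course along the fast score is likewise a description, since the gene was chosen for being higher in fast muscle. Chrna9 rose along it at each step from the lowest to the highest quintile of spots in all 4 sections. It went from 30.7 to 71.1 CPM in control 1, from 29.4 to 73.1 in control 2, from 7.58 to 38.9 in CaV1.1 KO and from 28.2 to 134 in β-cat cKO. Relative to the 9 muscle genes the highest quintile was 1.69 times the lowest in both controls, 2.18 times in CaV1.1 KO and 2.27 times in β-cat cKO. The lowest quintile of β-cat cKO was at the CPM of that of the controls, but relative to the muscle genes it was higher (448 against 288 and 291 Chrna9 UMIs per 1000000). Ordered by the Myh4 share of a spot, Chrna9 rose from 40.9 to 62.7 and from 38.1 to 65.0 in the controls, from 10.6 to 31.4 in CaV1.1 KO and from 60.2 to 119 in β-cat cKO. Relative to the 9 muscle genes the highest of these quintiles was 1.30 and 1.35 times the lowest in the controls, 1.62 times in CaV1.1 KO and 1.37 times in β-cat cKO. Ordered by the mean of the 9 muscle genes itself, the CPM ratios were 1.79 and 2.08, 5.73 and 3.18. Chrna9 and Myh4 therefore went together from spot to spot in the sections in which their levels departed from the controls in opposite directions. The part of muscle content in this was not tested.

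**Figure D5:**
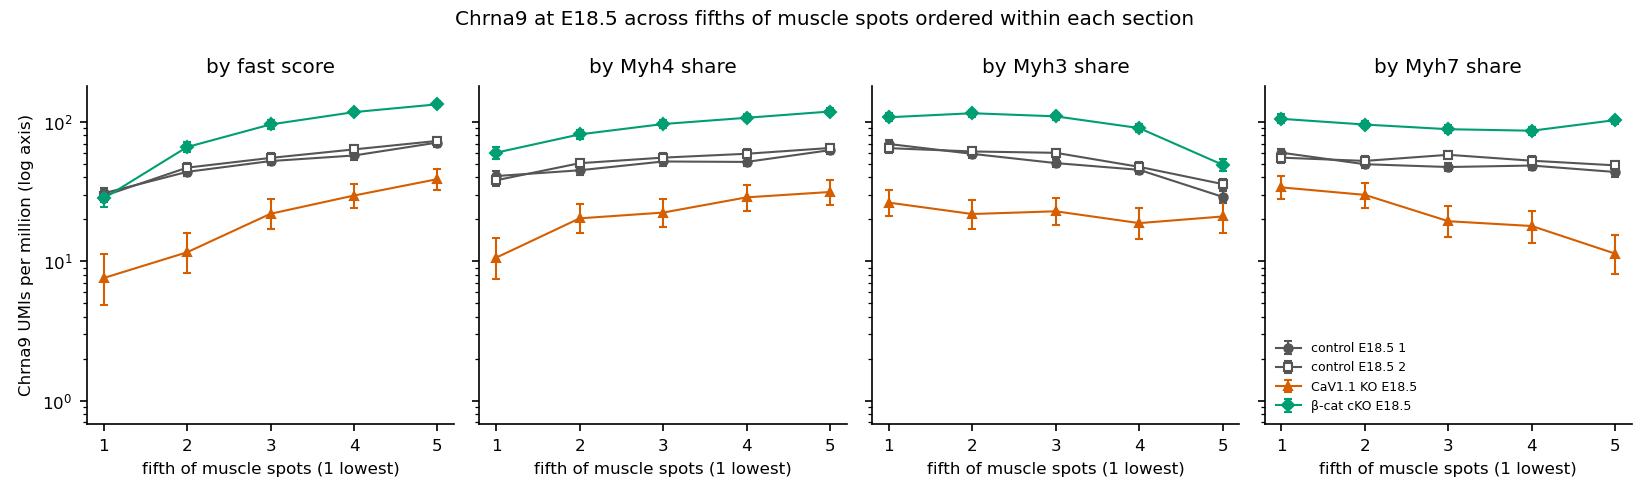
Chrna9 CPM (log axis, exact 95% Poisson intervals) in quintiles of the muscle spots of each E18.5 section, ordered by fast score and by the shares of Myh4, Myh3 and Myh7 UMIs. Chrna9 rose along the fast score in all 4 sections (30.7 to 71.1 in control 1, 28.2 to 134 in β-cat cKO) and fell with the Myh3 share in the controls (69.5 to 29.0 and 64.8 to 35.8).

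Ordered by the share of embryonic myosin Myh3, Chrna9 went the other way. It was at 69.5 and 64.8 CPM in the quintile of control spots with the least Myh3 and at 29.0 and 35.8 in the quintile with the most. In β-cat cKO these ends were at 108 and 49.2. In CaV1.1 KO, where Myh3 itself differed from the controls by -1.86 (edgeR adjusted p = 0.00287), the ends were at 26.4 and 21.0 with overlapping intervals. Along the share of the slow myosin Myh7 the fall was smaller in the controls, from 60.2 to 43.7 and from 55.4 to 48.8, and larger in CaV1.1 KO, from 33.9 to 11.3, while in β-cat cKO the ends were level at 105 and 103.

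By the mean Pearson's r of log-normalized counts over the 3092 and 2199 muscle spots of the 2 E18.5 controls, the genes most like Chrna9 were Atp2a1 (0.32), the calcium pump of fast fibers and a gene of the fast score, and Ckm (0.31), muscle creatine kinase, followed by Tnnt3, Eno3, Tnnc2, Pgam2, Myh8, Pygm, Aldoa and Acta1. Myh4 ranked 71 of 14795 genes at 0.16. The other fast myosins ranked low, Myh1 at 13207 (-0.06) and Myh2 at 13866 (-0.07), near the slow myosin Myh7 at 13795 (-0.07). In CaV1.1 KO and β-cat cKO Myh1 was at 0.11 and 0.25, and Myh2 at -0.07 and 0.03. The lowest r of all 14795 genes was that of Myh3, at -0.22. In sections not used for this ranking Atp2a1 was at 0.32 in CaV1.1 KO and 0.53 in β-cat cKO and Myh3 at -0.06 and -0.21. These spots share libraries and muscle content, and counts of Chrna9 per spot were low, so that the values are a description.

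The highest Pearson's r of log2 scaled counts with Chrna9 over the 8 sections belonged to Plcd4 (0.997), a phospholipase C, followed by Vps37c, Tdrp, Cltb, Cacng1, Eef2k, Stat3, Ttc9, Limch1 and Rras, down to 0.993. Stage weighs heavily in this measure, and all 10 were higher at E18.5 than at E14.5 in the controls. Cacng1, the γ subunit of the muscle calcium channel that CaV1.1 forms, had log2 differences of -0.72 in CaV1.1 KO and 0.43 in β-cat cKO. Of the fast myosins Myh1 ranked 1617 of 14831 genes (0.918), Myh2 2080 (0.896) and Myh4 4248 (0.712).

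The gene next to Chrna9 had the same course with stage. 9130230L23Rik is annotated 2032 bases downstream on the opposite strand (chr5:65979358-66004285) and was named by its position. It had 2, 2 and 0 UMIs in the muscle of the E14.5 controls and 394 and 528 in the E18.5 controls, a log2 difference of 7.37 ± 0.45 (edgeR adjusted p = 6.39e-06). This rise kept its direction and call when scaled to the 9 muscle genes. In the E18.5 controls it was lower in the center than in intermediate muscle, by -0.96 ± 0.15 (edgeR adjusted p = 0.00098), at 3.12 and 5.34 against 5.87 and 9.60 CPM. It was at 5.68 and 11.4 CPM in fast-rich and 3.85 and 5.74 in slow-rich spots of the controls, 8.81 and 2.90 in CaV1.1 KO and 7.14 and 2.56 in β-cat cKO, a log2 difference of 1.23 ± 0.20 over the 4 E18.5 sections (edgeR adjusted p = 0.0158). Over all muscle spots it was at 5.20 and 8.39 CPM in the E18.5 controls, 5.89 in CaV1.1 KO (96 UMIs) and 4.81 in β-cat cKO (232 UMIs), differences of -0.74 and -0.71 that did not pass (edgeR adjusted p = 0.201 and 0.288), the first of which turned positive when scaled to the 9 muscle genes. Rhoh, the neighbor on the other side at a distance of 38221 bases, had 85 to 212 UMIs in every section. With stage Rhoh went the opposite way to Chrna9. It was lower at E18.5 than at E14.5 in the controls, with a log2 difference of -0.89 ± 0.20 (edgeR adjusted p = 0.00473), where 32.3% of all genes were lower.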

How the data were processed

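The authors deposited, for each section, UMI counts per gene and spot with no normalization, made with Space Ranger on mm10 with the mouse probe set; per the file headers the version was 2.0.0 for 3 E14.5 sections (controls 1 and 2, CaV1.1 KO) and 2.0.1 for the other 5. Their scores of spatial autocorrelation were not used. Spots with at least 1000 UMIs were kept (683 to 3460 per section; 14179161 to 82859104 UMIs in all spots). Any 2 sections shared 150 to 2153 spot barcodes, which are common to all slides.

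Muscle, region and fast or slow spots were called by Otsu thresholds and ranked scores within sections. Counts summed over spots were tested with edgeR 4.0.16 (filterByExpr, TMM, quasi-likelihood, Benjamini-Hochberg): 1 fit over the 8 sections and 5 groups, with 3 residual degrees of freedom, and fits with the section as a block for regions and classes, since regions of 1 section come from the same embryo (correlations of deviations 0.32 to 0.68 at E14.5). DESeq2 1.42.0 was an alternative. On simulated counts for CaV1.1 KO at E18.5, the fit recovered 60 of 100 genes changed by 1 on the log2 scale and 80 of 100 changed by 2, among 14484 genes. Intervals cover counting error only.

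Chrna9, the gene lists and the tests were chosen with earlier results of these data known. Named genes were Chrna9, Myh4, fixed lists (nicotinic subunits, partners, fast, slow and developmental genes), the annotated neighbors and the 10 genes most like Chrna9 by each of 2 correlations. Thinning drew 5000 UMIs per spot without replacement. A comparison by 1 further regional marker is not reported here.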

Additional observations from a re-analysis of the deposited data

Results flagged for a closer look

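The difference between muscle center and intermediate muscle in controls had opposite signs at the 2 stages: Chrna9 was higher in the center in 3 of 3 E14.5 sections and lower in 2 of 2 E18.5 sections. A term for region by stage, fitted over the 5 control sections, gave a log2 difference of -1.91 ± 0.33 between the stages (edgeR, 13554 genes tested). This term was added after the opposite signs had been seen in the same sections, so that it is given without a p. The difference was -1.33 scaled to the 9 muscle genes and -1.91 with DESeq2. The E14.5 side rests on 12, 19 and 6 UMIs. The turn was not particular to Chrna9. Of the fast genes, 8 of 11 tested were higher in the E14.5 center (9.17% of all genes) and 10 of 12 lower in the E18.5 center (5.97%). The E14.5 side was not particular to fast genes, since 6 of 9 slow genes and 2 of 2 developmental myosins were higher there. In the E18.5 center 1 slow gene was higher and 2 were lower, and 1 developmental myosin was higher and 1 lower.

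The 2 mutants at E18.5 departed from the controls in opposite directions. The direct contrast, CaV1.1 KO minus β-cat cKO and likewise added after seeing the data, was -2.42 ± 0.19 for Chrna9. It compares 1 section with 1 section, takes its spread from the controls and is given without a p.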

How the results depend on the processing

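Of 84 alternative values over the 8 Chrna9 comparisons that were tested, 71 kept direction and side of the threshold; the causes of the changes were not tested. The 39 alternative values of the 3 comparisons given as descriptions were all positive. The gene was chosen for these patterns on the same counts, so that the shared sign is no support for them. In β-cat cKO the difference was 0.37 with all spots under tissue, 0.62 with a replicate block (edgeR adjusted p = 0.144) and 0.62 to 0.71 with 1 control section left out. In CaV1.1 KO it was -1.21 at E14.5 with all spots (edgeR adjusted p = 0.0326, called) and -0.35 at E18.5 scaled to the 9 muscle genes, where the interaction with stage was 0.0049 against -0.82 and uncalled both ways. The E14.5 center gave 1.14 with DESeq2, 0.86 with regions of 25% and 1.12 with no replicate block. With no replicate block the E18.5 center gave -0.70, no longer called, and fast-rich against slow-rich spots were at 1.27. Replicate numbers do not pair sections across stages (correlations of deviations -0.18 and -0.23), and the replicate block of the 8-section fit left 0 genes called in CaV1.1 KO at E14.5 and 81 in β-cat cKO. Scaling to the 9 muscle genes moved the median of all genes to -3.19 for stage in controls, -2.32 in CaV1.1 KO, 0.24 and 0.40 for center and periphery at E18.5 and -0.65 for fast-rich spots. Genes called, with the genes that define regions or classes counted in, as fitted and over the settings that moved the count by more than 1.5 times, were 308 and 0 to 4939 in CaV1.1 KO at E14.5, 3819 and 12468 at E18.5, 1305 and 81 to 3886 in β-cat cKO, 6820 and 12552 for stage in CaV1.1 KO, 949 and 0 to 4715 for the interaction, 2057 and 190 to 6573 for the E14.5 center, 947 and 65 to 320 for its periphery, 1480 and 81 to 6946 for the E18.5 center, 4385 and 487 to 9406 for its periphery, and 1545 and 0 to 10035 for fast-rich spots. Without E14.5 control 2, Chrna9 did not pass the low-count filter in the E14.5 regions, and no E18.5 control could be left out of the 2-section region fits. At E14.5, 20 to 50 Chrna9 UMIs per section limit every comparison. The fast-slow fits on the 2 control or the 2 mutant sections were chosen after seeing the data.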
